A study of Mus musculus with 16 samples.

Results

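Plat, Plau, Plaur, Serpine2, Mmp2, Mmp9, Mmp14, Timp1 and Timp3 encode 2 plasminogen activators, a receptor and an inhibitor of that system, 3 matrix metalloproteinases and 2 tissue inhibitors of metalloproteinases. They were taken by gene symbol from the deposited read counts of mouse granulosa cells (mGCs), where each symbol matched 1 row in each of the 2 tables, and they are 9 of 57010 genes. All 9 had reads in every fresh library, and all but Mmp9 had reads in every cultured one.

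The mGCs came from female ICR mice that were 6 weeks old at surgery. The Con-mGC libraries (n = 5) are from mice with sham surgery, and the EM-mGC libraries (n = 5) are from mice that received endometrium of estradiol-treated donor mice, sutured to the bowel, as a model of endometriosis (EM). Recipients kept their ovaries, were given 17β-estradiol every other day for 14 days, went through a washout of 2 weeks and had ovulation induced at day 30. The account of the model names PMSG or HCG, and a general protocol for mouse samples has ovaries taken 44 to 46 h after PMSG, but which of these the RNA-seq mice had is not stated. Nor is it stated whether sham mice had estradiol, so the implant and the estradiol cannot be told apart. For culture, mGCs of 6 EM mice were divided and cultured in medium (DMEM/F12) that held 5% FBS, with vehicle (PBS, n = 3) or with 100 nM 14,15-EET, an epoxide of arachidonic acid (EET, n = 3). The sources differ on whether the agents were present during 24 h of culture or were added after it for a further 24 h, so the time in culture is uncertain. PBS and EET libraries are described as paired biological replicates, but neither which of the 6 mice each held nor whether library numbers mark the pairs is stated.

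Plasminogen activators are serine proteases that cut plasminogen into plasmin, which degrades fibrin and matrix proteins and can activate metalloproteinase precursors. Plau acts at the cell surface when bound to its receptor Plaur, and Serpine2 (protease nexin-1) is a serpin that blocks both activators and thrombin. Mmp2 and Mmp9 are the gelatinases, which degrade denatured collagen and type IV collagen of basement membranes. Mmp14 is a membrane-bound metalloproteinase that cuts fibrillar collagen and activates pro-Mmp2, and the Timp proteins bind and inhibit metalloproteinases. In the ovary these systems are known for remodelling the follicle wall at ovulation, and neutrophils and macrophages are also known sources of Mmp9 and Plaur.

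In the deposited tables (GRCm39) the proteases of the plasminogen system lie on chromosome 8 (Plat, ENSMUSG00000031538, 23247743 to 23272860, plus strand) and chromosome 14 (Plau, ENSMUSG00000021822, 20886728 to 20893453, plus strand). Their receptor Plaur (ENSMUSG00000046223) spans 24161909 to 24175393 of chromosome 7, plus strand, and Serpine2 (ENSMUSG00000026249) 79771914 to 79838897 of chromosome 1, minus strand. The metalloproteinase genes are Mmp2 (ENSMUSG00000031740) at 93553919 to 93580048 of chromosome 8, Mmp9 (ENSMUSG00000017737) at 164782700 to 164797770 of chromosome 2 and Mmp14 (ENSMUSG00000000957) at 54669069 to 54682821 of chromosome 14, all on the plus strand. Timp1 (ENSMUSG00000001131, X, 20736405 to 20740974, plus strand) lies within Syn1 and Timp3 (ENSMUSG00000020044, chromosome 10, 86136236 to 86185370, plus strand) within Syn3, both of which run on the minus strand. Syn1 had at most 145 and Syn3 at most 47 reads in a library.

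The depth was 14229123 to 15999234 assigned reads a library in fresh cells and 21384686 to 29482826 in culture. Granulosa markers were present, with 11 of 11 at a mean of at least 1 CPM (counts per 1000000 reads of a library, after normalization) in fresh cells and 9 of 11 in cultured cells. In culture Cyp19a1 and Amh were at or near 0. Marker sums are normalized within the fresh and within the cultured table, so these are not on the same scale. On that basis the summed granulosa markers stood at 5270 to 6140 CPM in cultured and 6320 to 21800 CPM in fresh cells. With all 16 libraries normalized together, cultured levels are higher and fresh levels lower, so that gap does not show that the sums differ. EM-mGC-3 stood apart from the other fresh libraries, with 21.8% mitochondrial reads against 6.76% to 11.1% in the rest. Its red blood cell markers summed to 17410 CPM, against 2647 to 6147 CPM in the rest. Results that lean on EM-mGC-3 are therefore given without it as well. Fresh libraries also held markers of stroma, theca, smooth muscle, endothelium, surface epithelium, leukocytes, oocytes and red blood cells. Summed stromal markers were at 639 to 1750 CPM in fresh and 211 to 284 CPM in cultured cells, and endothelial markers at 105 to 213 and 5.72 to 7.49 CPM. The sums of theca and smooth muscle markers were higher in culture, mostly through Aldh1a1 and Acta2. With all 16 libraries normalized together, Aldh1a1 was at 331 to 707 CPM in fresh and 3434 to 4272 CPM in cultured cells. Acta2 was at 69.3 to 252 and 482.5 to 747 CPM. Cyp17a1 was at 139 to 289 CPM in fresh cells and 0 to 0.109 CPM in culture, where Gli1, Hhip and Insl3 were below 1 CPM. On average Myh11, Des and Actg2 were lower in culture and Tagln was higher. What these marker changes have to do with the members in culture was not tested. In bulk RNA, fewer cells of a type and less RNA per cell cannot be told apart.

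The promoters of 4 members are shown: Mmp14 and Timp3, which rose in culture, and for comparison Plaur and Timp1, which did not pass the main test in any comparison and whose mean in EM-mGC lay furthest above Con-mGC after that of Mmp9. Each line gives the 250 bases before the RefSeq start (build GRCm38.p6, plus strand), 5′ to 3′, at chr7:24462233-24462482 for Plaur, chrX:20869916-20870165 for Timp1, chr14:54431348-54431597 for Mmp14 and chr10:86300162-86300411 for Timp3. Capitals mark every match, on either strand, to the AP-1 motif TGANTCA, the cAMP response element TGACGTCA, the GC box GGGCGG, the TATA box TATAAA or the E-box CACGTG.
Plaur: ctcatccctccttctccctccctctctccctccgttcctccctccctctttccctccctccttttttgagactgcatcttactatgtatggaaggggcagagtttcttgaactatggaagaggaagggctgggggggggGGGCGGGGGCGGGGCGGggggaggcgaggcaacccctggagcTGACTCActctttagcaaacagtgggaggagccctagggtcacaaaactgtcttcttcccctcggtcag
Timp1: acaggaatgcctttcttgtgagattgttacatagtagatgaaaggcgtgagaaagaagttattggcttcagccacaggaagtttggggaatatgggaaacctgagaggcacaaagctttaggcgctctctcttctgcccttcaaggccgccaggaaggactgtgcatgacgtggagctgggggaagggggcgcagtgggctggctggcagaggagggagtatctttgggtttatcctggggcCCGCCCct
Mmp14: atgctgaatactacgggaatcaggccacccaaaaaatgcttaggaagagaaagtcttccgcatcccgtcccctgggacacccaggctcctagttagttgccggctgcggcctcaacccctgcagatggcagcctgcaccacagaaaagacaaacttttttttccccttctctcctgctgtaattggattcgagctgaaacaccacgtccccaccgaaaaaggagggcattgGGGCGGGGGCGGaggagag
Timp3: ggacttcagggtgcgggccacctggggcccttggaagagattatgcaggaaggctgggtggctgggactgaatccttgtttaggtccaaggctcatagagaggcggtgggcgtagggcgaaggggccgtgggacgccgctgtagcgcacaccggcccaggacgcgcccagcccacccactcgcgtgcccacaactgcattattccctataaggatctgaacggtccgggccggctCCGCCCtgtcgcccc

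The Plaur promoter held 1 AP-1 match, TGACTCA, 69 to 63 bases before the start, and 3 GC boxes, of which the last 2 overlap by 1 base. AP-1 letters were found in 6.75% of 32851 mouse promoter windows of the same length, and GC boxes in 32.7%. The Mmp14 promoter held 2 GC boxes within 19 bases of the start, and those of Timp1 and Timp3 held 1 each on the minus strand. None of these 4 windows held the cAMP response element (1.55% of all windows), the TATA box letters (12.4%) or the E-box (6.02%). Of the other members, Serpine2 was in the promoter table too, with 6 GC boxes, and Plat, Plau, Mmp2 and Mmp9 were not. A match is a string of letters, and no binding was measured in these cells.

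To compare the genes with each other, levels were put on 1 scale of CPM per kilobase of exon, with all 16 libraries normalized together. The length of a gene is the union of all its annotated exons, so the order depends on that choice of length. Serpine2 led in every group, with 125 ± 18.6 in Con-mGC (SD, n = 5), 131 ± 62.3 in EM-mGC (n = 5), 191 ± 34.7 in PBS (n = 3) and 161 ± 9.78 in EET (n = 3). Timp1 came next at 64.5 ± 18.5, 116 ± 59.0, 106 ± 16.6 and 109 ± 2.99 in the same order. On this scale the most abundant transcripts of the set were therefore both inhibitors. In CPM without division by length Serpine2 still led, but Timp1, at 57.25 in Con-mGC and 102.9 in EM-mGC, was below Mmp14, at 103 and 113.4. In EM-mGC the spread of Serpine2 and Timp1 overlapped, and in the other 3 groups it did not.

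Below these, Plau was per kilobase the leading protease transcript among the 9 members in fresh cells, with 33.6 ± 4.23 in Con-mGC and 30.7 ± 4.54 in EM-mGC. Mmp14 followed with 17.3 ± 3.0 and 19.0 ± 2.83. In CPM without division by length this order was reversed, with Plau at 79.6 and 72.6 and Mmp14 at 103 and 113.4. Mmp2 and Plat, at 11.4 and 10.1 in Con-mGC, did not differ beyond their spread, and neither did Plat and Timp3. Plaur and Mmp9 were lowest, with 1.54 ± 0.615 and 0.648 ± 0.398 in Con-mGC. Both Plau and Plat were thus present at the mRNA level in the fresh libraries, with a per-length Plat to Plau ratio of 0.170 to 0.512 over the Con-mGC libraries. These are bulk RNA that also held markers of other cells, so which cells made the 2 transcripts is not known. Plg, which encodes plasminogen itself, had at most 4 reads in any library.

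In culture the order was different. Mmp14 (52.3 ± 2.68 CPM per kilobase in PBS) and Timp3 (45.8 ± 5.08) stood above Plau (12 ± 3.37) and overlapped each other, whereas in fresh cells Timp3 had been below Plat on average. Mmp2 remained near its fresh level, at 10.4 ± 0.205. Plat was at 4.44 ± 0.462, Plaur at 2.62 ± 0.765, and Mmp9 at 0.0235 ± 0.0197.

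**Figure D1:**
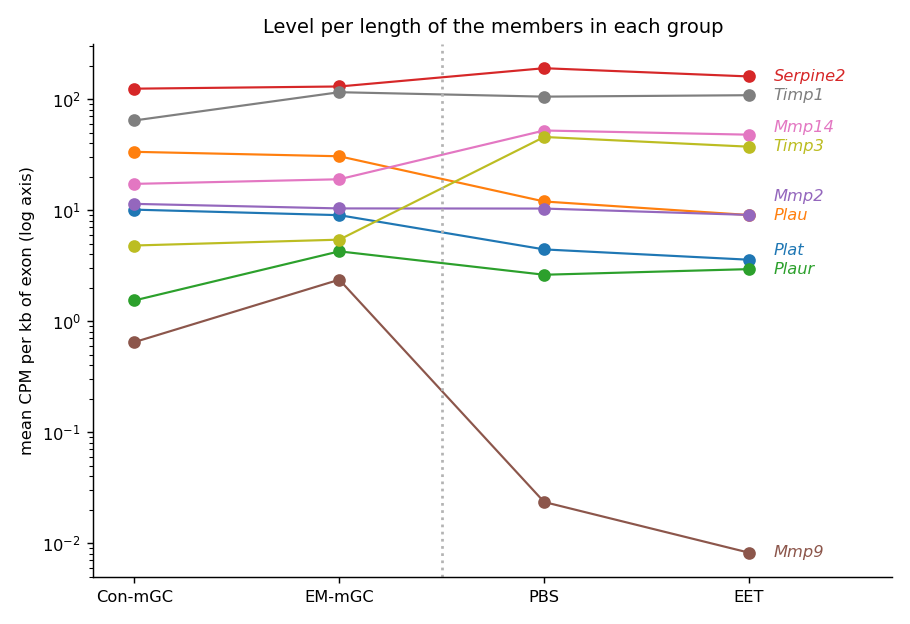
Mean level of each of the 9 genes per kilobase of exon (vertical axis, log scale, all 16 libraries normalized together) in the 4 groups (n = 5, 5, 3 and 3 libraries). The dotted line separates fresh from cultured cells, across which Timp3 stood at 5.43 in EM-mGC and 45.8 in PBS and Mmp9 at 2.37 and 0.0235.

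The first comparison asks what differs in granulosa cells of mice with endometriosis. No gene of 17229 passed the adjusted p of 0.05 in edgeR's quasi-likelihood test (0%), so 0 of 9 members did. At an unadjusted p under 0.05, 3 of 9 members (Mmp9, Plaur and Timp1) stood beside 1626 genes (9.44%), all 3 with the higher mean in EM-mGC. DESeq2 called 113 of 16885 genes (0.669%), among them Mmp9 and Plaur. The log2 fold changes below are EM-mGC over Con-mGC, and CPM values are normalized within the fresh table.

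Mmp9 was at 1.25, 2.82, 5.00, 1.79 and 1.61 CPM in Con-mGC-1 to Con-mGC-5 and at 7.38, 5.39, 8.13, 11.7 and 12.8 CPM in EM-mGC-1 to EM-mGC-5. All 5 EM-mGC libraries lay above all 5 Con-mGC libraries, which was the case for 0.917% of the genes tested and for no other member. The log2 fold change was 1.86 ± 0.38 (SE), a 3.63-fold higher level, with a 95% interval from 1.04 to 2.68. Its edgeR adjusted p was 0.303, the DESeq2 adjusted p was 0.00109, and a two-sided exact permutation test of log2(CPM + 0.1) gave 0.00794, the smallest p that 5 against 5 libraries allow. Mmp9 was 18th of all genes by p in edgeR. Without Con-mGC-3, the highest of its group, the log2 fold change was 2.28 and the edgeR adjusted p 0.0231, and without EM-mGC-3 these were 1.90 and 0.446.

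Plaur, the receptor that holds Plau at the cell surface, was at 2.96, 4.29, 7.25, 4.37 and 3.04 CPM in Con-mGC and at 8.98, 6.05, 23.2, 10.9 and 11.3 CPM in EM-mGC. In 4 of 5 EM-mGC libraries it was above every Con-mGC library, with EM-mGC-3 far above the others and EM-mGC-2 below Con-mGC-3. The log2 fold change was 1.46 ± 0.36 (95% interval 0.68 to 2.24), with an adjusted p of 0.358 in edgeR and of 0.0192 in DESeq2, and the exact permutation test gave 0.0159. Without EM-mGC-3 the log2 fold change was 1.09, with an edgeR adjusted p of 0.460. Plau, the ligand of the receptor, ran from 74.6 to 96.5 CPM in Con-mGC and from 68.0 to 99.1 CPM in EM-mGC, a log2 fold change of -0.14 ± 0.12. The median per-length ratio of Plau to Plaur was 24.6 in Con-mGC and 9.11 in EM-mGC, with overlapping ranges of 11.5 to 35.1 and 3.63 to 13.9.

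Most markers of leukocytes also had the higher mean in EM-mGC. Summed over 9 neutrophil markers (S100a8, S100a9, Ly6g, Cxcr2, Csf3r, Retnlg, Camp, Ngp and Ltf), the level was 18.9 to 70.7 CPM in Con-mGC and 60.8 to 212 CPM in EM-mGC, and the EM-mGC mean was higher for 7 of the 8 that reached 1 CPM on average. The exception was Ltf, at 10.6 to 28.3 CPM in Con-mGC and 4.98 to 18.3 CPM in EM-mGC. For macrophage markers the sum was 149 to 272 and 137 to 403 CPM, with the EM-mGC mean higher for 9 of 9, and for general leukocyte markers 60.9 to 142 and 79.1 to 189 CPM, higher for 6 of 6. The log2 fold changes of the macrophage markers ran from 0.03 for Adgre1 to 1.84 for Cd14. The Con-mGC library with the most neutrophil, macrophage and leukocyte marker reads, Con-mGC-3, was also the highest of its group for Mmp9 and Plaur. EM-mGC-3, the highest library for Plaur, had the largest macrophage sum. EM-mGC-2 had the smallest macrophage sum of the 10 fresh libraries, at 137 CPM, while its Plaur level of 6.05 CPM was above every Con-mGC library except Con-mGC-3. The part of these cells in the Mmp9 and Plaur differences was not tested.

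The 3 genes whose log2 CPM followed Mmp9 most closely over the 10 fresh libraries, of 14039 candidates, were S100a8 (Pearson r = 0.982, Spearman rho = 0.964), Il36g (0.979, 0.939) and Fcgr4 (0.967, 0.927). S100a8 encodes a calcium-binding protein abundant in neutrophils, Il36g a cytokine of the interleukin 1 family, and Fcgr4 an Fc receptor of myeloid cells. For Plaur they were Srgn (r = 0.988, rho = 0.964), a proteoglycan core protein of blood cell granules, Cd14 (0.984, 0.964), the lipopolysaccharide co-receptor of monocytes and macrophages, and Rab8b (0.968, 0.891), a small GTPase. These are the highest of many correlations, pooled over both groups, and are given without a p.

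**Figure D2:**
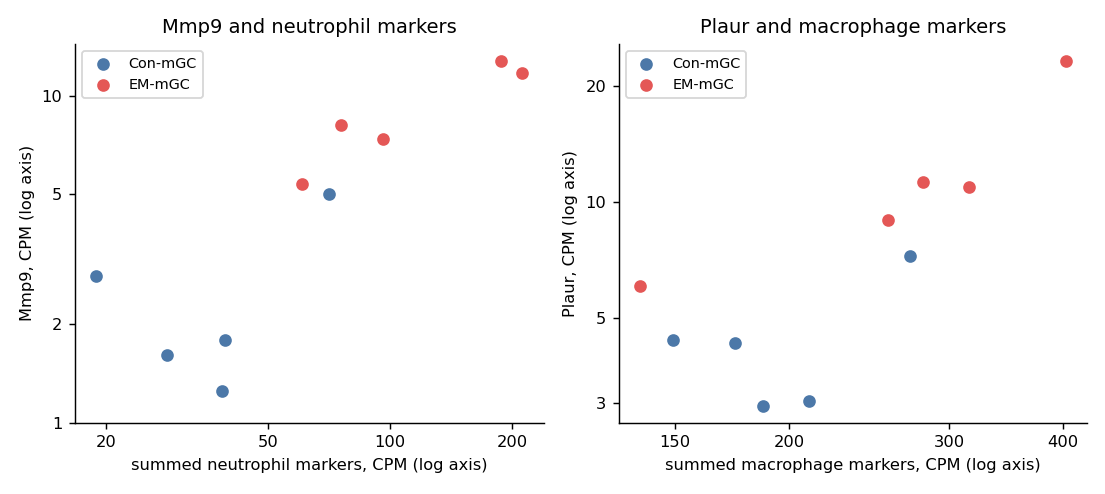
Mmp9 against summed neutrophil markers (left) and Plaur against summed macrophage markers (right), in CPM on log axes, with 1 point for each of the 10 fresh libraries. The 5 EM-mGC points lie higher for Mmp9 (5.39 to 12.8 CPM) than the 5 Con-mGC points (1.25 to 5.00 CPM), and the Con-mGC point closest to them is Con-mGC-3.

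Timp1, a secreted inhibitor that also binds pro-Mmp9, was at 78.7, 72.3, 74.0, 42.7 and 43.7 CPM in Con-mGC and at 131, 46, 67.7, 123 and 190 CPM in EM-mGC. Only 3 of 5 EM-mGC libraries (1, 4 and 5) exceeded the Con-mGC range, and these also had the highest neutrophil marker sums of the fresh libraries, whose part in Timp1 was not tested. The log2 fold change was 0.84 ± 0.34 (95% interval 0.10 to 1.58), the edgeR adjusted p was 0.513, the DESeq2 adjusted p 0.285, and the exact permutation p 0.151. The per-length Timp1 to Mmp9 ratio had a median of 102 in Con-mGC (59.0 to 251) and of 41.8 in EM-mGC (33.2 to 70.6). The genes most like Timp1 over the fresh libraries were Pdlim4 (r = 0.970), Dok1 (0.965) and Mfge8 (0.962). Timp3, the inhibitor that binds to the matrix, overlapped between the groups, at 32.6 to 55.8 and 37.1 to 57.7 CPM, and its log2 fold change was 0.17 ± 0.16 (adjusted p 0.752).

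For the other 4 members the interval of the difference included 0. Plat, the tissue-type activator, was the most variable of them in Con-mGC, at 123, 42.7, 67.1, 49.8 and 61.0 CPM, with EM-mGC at 30.2, 73.3, 103, 34.6 and 64.4 CPM. Its log2 fold change was -0.17 ± 0.36, with an interval of -0.95 to 0.61, and it was 0.15 without Con-mGC-1. Plat is also a known maternal transcript of oocytes, and oocyte markers moved with it. Summed over 8 of these (Zp1, Zp2, Zp3, Gdf9, Bmp15, Oosp1, Nlrp5 and Ooep), the level was 785, 364, 555, 414 and 805 CPM in Con-mGC and 108, 727, 843, 253 and 498 CPM in EM-mGC. The 5 EM-mGC libraries stood in the same order for Plat and for the sum, as did the Con-mGC libraries apart from Con-mGC-5, and the part of oocytes in the spread of Plat was not tested. Serpine2 was at 957 to 1405 CPM in Con-mGC and 767 to 2149 CPM in EM-mGC, where EM-mGC-2 alone exceeded 1110 CPM. Its log2 fold change was 0.06 ± 0.26, and -0.28 without EM-mGC-2. Mmp2 was lowest in that same library, at 17 CPM against 37.1 to 51.9 CPM in the other EM-mGC libraries and 31.4 to 50.4 CPM in Con-mGC. Its log2 fold change was -0.14 ± 0.24, and 0.05 without EM-mGC-2. Mmp14 was at 93.0 to 144 CPM in Con-mGC and 103 to 145 CPM in EM-mGC, a log2 fold change of 0.13 ± 0.13.

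In EM-mGC-2 the granulosa markers were also highest, at 21790 CPM in sum, and the markers of stroma, at 639 CPM, were lowest of the 10 fresh libraries. Serpine2 is a known product of granulosa cells, and Mmp2 is known from stromal cells. The part of this makeup in the values of EM-mGC-2 was not tested. The genes most like Serpine2 over the fresh libraries were Epha7 (r = 0.951), Pacc1 (0.951) and Robo2 (0.941), and those most like Mmp2 were Pnck (0.938), Chrm4 (0.932) and Serping1 (0.929). For Plat they were Siah2 (0.979), Grhl1 (0.979) and Nsun4 (0.975), for Plau Zfp641 (0.895), Adam12 (0.893) and Abca8b (0.878), for Mmp14 Serinc2 (0.941), Lratd1 (0.926) and Llph (0.915), and for Timp3 Nqo2 (0.962), Fam91a1 (0.953) and H2bc21 (0.944).

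**Figure D3:**
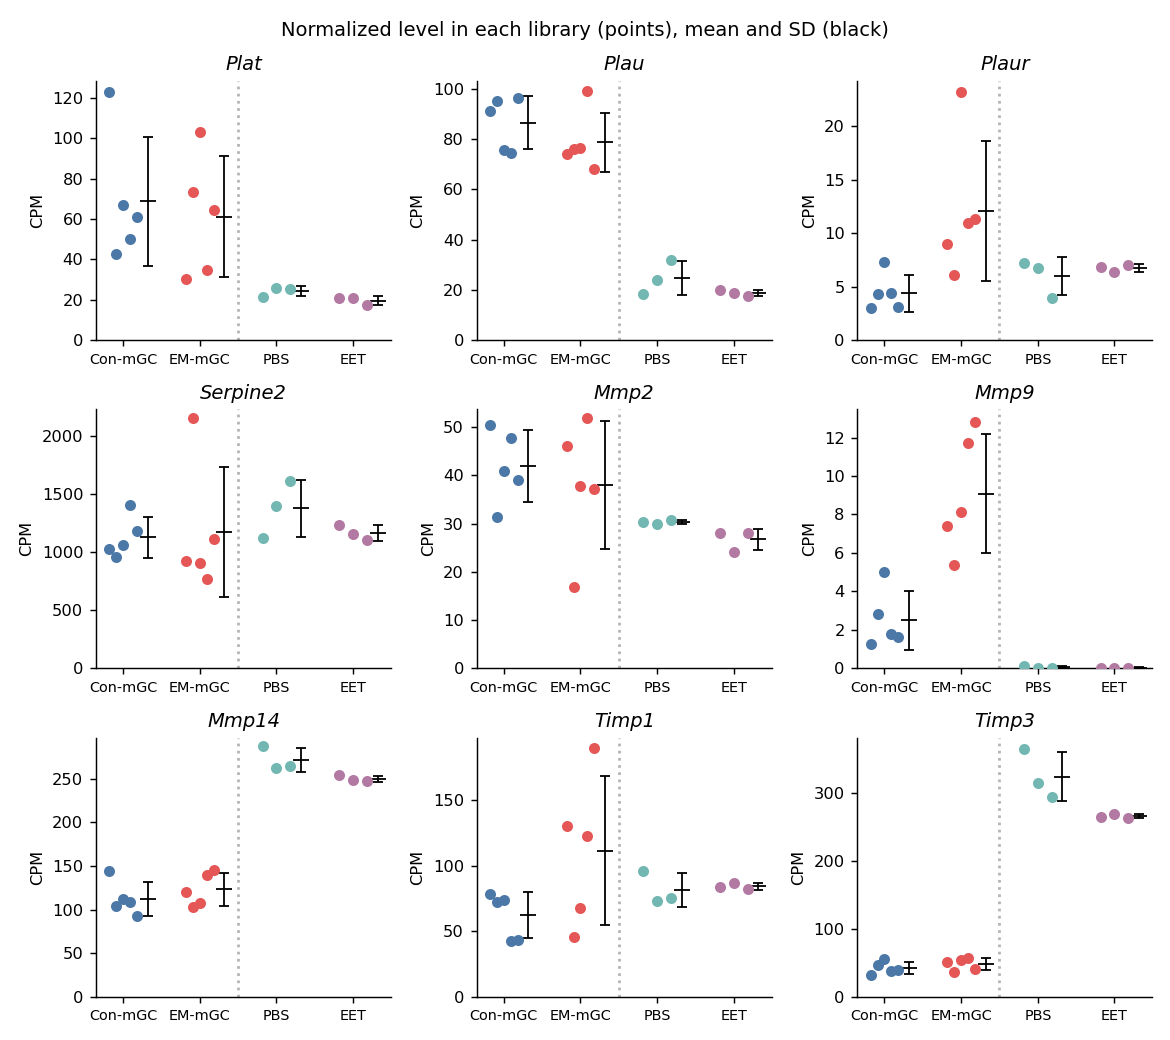
Level of each gene in every library (points, CPM normalized within the fresh and within the cultured table), with the mean and SD of each group in black, on axes that start at 0. The dotted line separates the fresh groups (n = 5 each) from the cultured groups (n = 3 each), which were normalized separately.

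Among the other genes of these systems, 0 of 13 tested genes of the plasminogen list, 0 of 13 metalloproteinases, 0 of 5 inhibitors and 0 of 15 ADAMTS proteases passed edgeR's adjusted p between EM-mGC and Con-mGC, and DESeq2 called 1, 1, 0 and 1 of them. The median log2 fold changes were -0.08, 0.13, 0.17 and -0.22, beside -0.01 for all genes. Mmp8, the neutrophil collagenase, was at 0 to 1.88 CPM in Con-mGC and 1.12 to 14.5 CPM in EM-mGC, with a log2 fold change of 3.22 ± 0.85 and an edgeR adjusted p of 0.377. Serpinb2, a serpin that inhibits Plau, had a log2 fold change of -1.10 ± 0.47 (adjusted p 0.516). Adamts4, a proteoglycan-cutting protease, was at 3.81 to 7.16 CPM in Con-mGC and 6.97 to 14.6 CPM in EM-mGC, a log2 fold change of 0.96 ± 0.24 (adjusted p 0.358). Of ovulation response genes 0 of 11 passed, and of luteal genes 0 of 7.

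The PBS and the EM-mGC libraries both hold mGCs of EM mice, cultured and fresh. They also differ in mice, experiment and depth, and these cannot be told apart from culture. In this comparison 11932 of 17301 genes (69%) passed the adjusted p of edgeR, 31.1% with higher and 37.9% with lower levels in culture. Of the 9 members 5 did, Timp3 and Mmp14 with higher and Mmp9, Plau and Plat with lower levels. That share is below the background. The median log2 fold change of all genes was -0.11. With upper-quartile scaling it was -0.36, and 32.6% of the called genes were higher in culture against 45.1% here. Relative to the median of all genes the 5 called members kept their direction under both scalings.

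Timp3 rose most. It was at 47.3, 34.2, 49.5, 52.9 and 37.4 CPM in EM-mGC and at 419, 359 and 340 CPM in PBS, with all 16 libraries normalized together. The groups did not overlap, which held with higher levels in culture for 31.3% of all genes tested. The log2 fold change was 3.05 ± 0.16, 8.29-fold, with an adjusted p of 4.98e-07, and relative to the median of all genes it was 3.16 under either scaling. Timp2, a soluble inhibitor that takes part in Mmp14-dependent activation of Mmp2, rose as well, by 1.58 ± 0.12 on the log2 scale. Timp1 did not pass, at 42.4 to 175 CPM in EM-mGC and 83.7 to 111 CPM in PBS, and its log2 fold change was -0.15 ± 0.38. Timp4 and Reck, a membrane-anchored inhibitor, fell by 1.52 ± 0.39 and 1.28 ± 0.26. The per-length ratio of Timp3 to Timp1 was 0.0233 to 0.0879 over EM-mGC and 0.413 to 0.468 over PBS libraries.

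Mmp14 was at 112, 94.99, 99.5, 128 and 133 CPM in EM-mGC and at 330, 299 and 307 CPM in PBS. Its log2 fold change was 1.44 ± 0.13, 2.71-fold, with an adjusted p of 9.58e-06, and the groups did not overlap. Mmp2, the gelatinase it activates, was at 15.6 to 47.6 CPM in EM-mGC and 34.2 to 35.6 CPM in PBS, a log2 fold change of -0.03 with an interval of -0.67 to 0.61. The per-length ratio of Mmp14 to Mmp2 ran from 1.48 to 3.44 in EM-mGC and from 4.87 to 5.34 in PBS.

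Mmp9 fell furthest. The 5 EM-mGC libraries held 644 Mmp9 reads in all, the 3 PBS libraries 5 and the 3 EET libraries 2. The rate in EM-mGC was 109 times that in PBS, with an exact 95% interval of 46.6 to 338 that covers counting error only, and the fitted log2 fold change was -6.65 ± 0.53 (adjusted p 4.53e-06). In sum, neutrophil, macrophage and leukocyte markers were lower in the same cultures than in fresh cells. Normalized within the table, their sums were 0.522 to 1.55 CPM, 10.8 to 15.3 CPM and 1.42 to 2.07 CPM. S100a8, S100a9, Ly6g and Retnlg were at 0 in all 6 libraries. Camp was an exception among the neutrophil markers, at 0.522 to 1.55 CPM in culture and 0.394 to 8.32 CPM in EM-mGC, each normalized within its table. Mmp8 was at 383 reads in EM-mGC, 1 in PBS and 0 in EET. The part of the lower leukocyte marker levels in the fall of Mmp9 was not tested.

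Both activators fell. Plau was at 68.6, 70.4, 70.5, 90.9 and 62.6 CPM in EM-mGC and at 21.2, 27.1 and 37.0 CPM in PBS, without overlap, which held with lower levels in culture for 35% of all genes. Its log2 fold change was -1.38 ± 0.19 (adjusted p 0.000129). Plat was at 28.0, 67.7, 95.2, 31.7 and 59.3 CPM in EM-mGC and at 24.4, 29.6 and 29.1 CPM in PBS. These overlapped, and the log2 fold change of -1.05 ± 0.37 had an edgeR adjusted p of 0.0280. That p was 0.0509 without EM-mGC-2 and 0.119 with no filter on low counts. Plat also missed the threshold when any 1 PBS library was left out, with an edgeR adjusted p of 0.0667 without PBS-2 and of 0.0963 at most. The summed oocyte markers, normalized within each table, were at 108 to 843 CPM in EM-mGC and at 1.04 to 1.19 CPM in PBS. There Zp1, Oosp1 and Nlrp5 were at 0, and the part of oocytes in the fall of Plat was not tested. The exact permutation p was 0.0357 for Timp3, Mmp14, Mmp9 and Plau, the smallest that 3 against 5 libraries allow, and 0.107 for Plat.

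Plaur, at 5.58 to 21.4 CPM in EM-mGC and 4.58 to 8.29 CPM in PBS, did not pass, with a log2 fold change of -0.73 ± 0.41 and an adjusted p of 0.140. Its highest value was that of EM-mGC-3, with 5.58 to 10.4 CPM in the other EM-mGC libraries. Without EM-mGC-2 the log2 fold change was -0.92 and the adjusted p 0.0446, and without EM-mGC-3 the log2 fold change was -0.36. Over all left-out libraries the adjusted p ran from 0.0446 to 0.365. Plaur kept 110 to 176 reads in each PBS library, where the macrophage markers Csf1r and Cd68 kept 124 to 153 and 83 to 133 reads. The part of leukocytes in the Plaur reads in culture was not tested. Serpine2 was at 704 to 1982 CPM in EM-mGC and 1287 to 1862 CPM in PBS, a log2 fold change of 0.53 ± 0.31 (adjusted p 0.150), and without EM-mGC-2 it was 0.83 with an adjusted p of 0.00227. The per-length ratio of Serpine2 to Plat was 6.64 to 23.1 over EM-mGC libraries and 39.7 to 48.1 over PBS libraries.

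**Figure D4:**
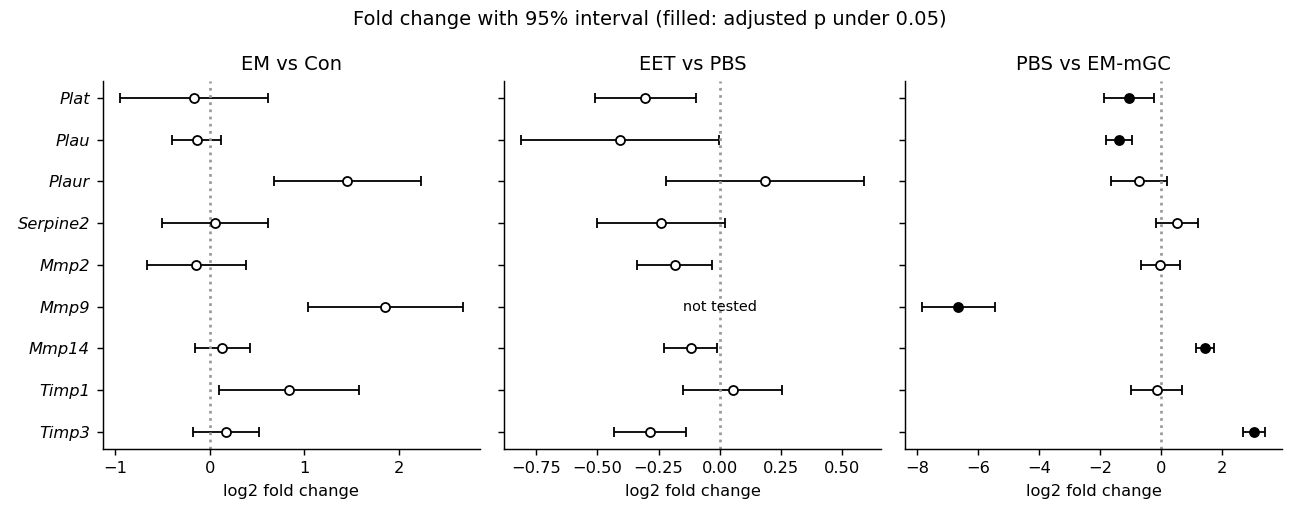
Log2 fold change of each gene with its 95% interval in the 3 comparisons, each on its own horizontal axis. Filled points passed the adjusted p of 0.05 of edgeR, which were Plat, Plau, Mmp9, Mmp14 and Timp3 in the comparison of PBS with EM-mGC, and Mmp9 had too few reads to be tested between EET and PBS.

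In the wider lists, 4 genes rose and 6 fell among 12 tested genes of the plasminogen system, 6 rose and 4 fell among 14 metalloproteinases, and 2 rose and 2 fell among 5 inhibitors. Anxa2 and S100a10, whose products form a plasminogen-binding complex at the cell surface, rose by 1.34 ± 0.24 and 0.97 ± 0.20 on the log2 scale. Lrp1, an endocytic receptor for protease-inhibitor complexes, rose by 0.67 ± 0.19. Serpina5, another inhibitor of Plau, fell by 2.57 ± 0.22 and Plgrkt, a plasminogen receptor, fell by 0.62 ± 0.17. Serpinb2 had 203 reads in EM-mGC and 4 in PBS. Mmp11, Mmp16 and Mmp24, the latter pair membrane-type enzymes, rose by 2.43 ± 0.38, 2.74 ± 0.19 and 5.72 ± 0.43, Mmp24 from 4 reads in all EM-mGC libraries to 202 in PBS. Mmp12, the macrophage elastase, fell by 2.05 ± 0.48.

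Of 15 ADAMTS proteases, 6 rose and 6 fell. Adamts1, a known ovulation-related protease, rose by 1.44 ± 0.22, Adamts9 by 2.01 ± 0.30 and Adamts16 by 5.28 ± 0.26 on the log2 scale, while Adamts15 fell by 3.59 ± 0.60. Ovulation response genes rose in 3 and fell in 5 of 11, with Ptgs2 higher by 3.23 ± 0.57 and Pgr, the progesterone receptor, lower at -4.79 ± 0.69. Of luteal genes 0 rose and 4 fell among 7. The members and these lists thus moved in both directions, and the median log2 fold change was -0.15 over the 9 members.

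The last comparison asks what 14,15-EET changed in cultured mGCs. Of 15050 genes tested, 225 (1.5%) passed the adjusted p of edgeR, and 0 of the 8 members tested did. At an unadjusted p under 0.05 there were 5 of 8 members (Plat, Plau, Mmp2, Mmp14 and Timp3, all with the lower mean in EET) beside 12.4% of all genes, and DESeq2 called 341 of 13004 genes (2.62%), with Timp3 the only member. The EET libraries lay below all PBS libraries for 4 of 9 members, Plat, Mmp2, Mmp14 and Timp3, as did 9.17% of all genes. For each of these the exact permutation p was 0.1, the smallest that 3 against 3 libraries allow. Members share the same 6 libraries, so their directions are not independent of each other.

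Timp3 was at 365, 315 and 294 CPM in PBS and at 265, 269 and 264 CPM in EET. The log2 fold change of EET over PBS was -0.28 ± 0.07, with an interval of -0.43 to -0.14, an edgeR adjusted p of 0.0618 and a DESeq2 adjusted p of 0.00685. With the replicate number as a block, which assumes that equal numbers mark the pairs, the log2 fold change was -0.28 with an edgeR adjusted p of 0.0147, and 435 genes were called in place of 225. Timp2, which is not a member, did pass, at 277, 274 and 253 CPM in PBS and 224, 235 and 232 CPM in EET, a log2 fold change of -0.22 ± 0.05 with an adjusted p of 0.0480. That call was lost among protein-coding genes only, without robust dispersion estimates and when any 1 EET library was left out. Timp1 overlapped, at 96.4, 73.3 and 75.3 CPM against 84.2, 87.2 and 82.1 CPM, with an interval of -0.15 to 0.25.

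Plat was at 21.2, 25.9 and 25.2 CPM in PBS and at 20.8, 20.7 and 17.1 CPM in EET, a log2 fold change of -0.30 ± 0.10 (adjusted p 0.179). Plau was at 18.4, 23.7 and 31.9 CPM in PBS and at 19.98, 18.6 and 17.6 CPM in EET, so the groups overlapped, and its log2 fold change was -0.41 ± 0.18 (adjusted p 0.401). PBS-1 was the lowest PBS library for both activators and for Serpine2, and the highest for Timp1, Timp3 and Mmp14. Without PBS-1 the log2 fold changes of Plat, Plau and Serpine2 were -0.38, -0.57 and -0.37, with adjusted p of 0.0363, 0.0134 and 0.00481. PBS-1 was singled out after its values were seen. With other libraries left out the log2 fold changes were as small as -0.22, -0.17 and -0.11, and the adjusted p as high as 0.607, 0.737 and 0.772. With all libraries Serpine2 was at 1119, 1395 and 1609 CPM in PBS and 1233, 1155 and 1101 CPM in EET, a log2 fold change of -0.24 ± 0.12 (adjusted p 0.439).

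Mmp14 was at 287, 262 and 265 CPM in PBS and 254, 248 and 247 CPM in EET, a log2 fold change of -0.12 ± 0.05 with an interval of -0.23 to -0.01. Mmp2 was at 30.4, 29.97 and 30.8 CPM against 28.0, 24.2 and 28.0 CPM, a log2 fold change of -0.18 ± 0.07 with an interval of -0.34 to -0.03. Their adjusted p were 0.343 and 0.306. Plaur overlapped, at 3.96 to 7.21 CPM in PBS and 6.36 to 6.99 CPM in EET, with an interval of -0.22 to 0.59. Mmp9, with 5 reads in PBS and 2 in EET, was not tested, and a difference was not detectable at this depth.

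Of the wider lists, 0 of 11 genes of the plasminogen system, 0 of 11 metalloproteinases, 1 of 5 inhibitors (Timp2, lower) and 1 of 14 ADAMTS proteases passed. The last was Adamts2, a procollagen-processing protease, at 34.3, 33.5 and 38.7 CPM in PBS and 48.3, 41.8 and 45.3 CPM in EET, a log2 fold change of 0.34 ± 0.07 with an adjusted p of 0.0372. No ADAMTS gene was called when any 1 EET library was left out. Ovulation response and luteal genes gave 0 of 8 and 0 of 6. The median log2 fold change was -0.21 over the 8 members tested, 0.00 over the plasminogen list and 0.00 over all genes.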

How the data were processed

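RNA of fresh mGCs (5 Con-mGC and 5 EM-mGC libraries, 1 mouse each) and of cultured mGCs (3 PBS and 3 EET libraries) was taken with TRIzol, made into stranded poly(A) libraries and sequenced from both ends with reads of 150 bp. The authors deposited raw read counts per Ensembl gene, not normalized, in 2 tables for 57010 genes. The submitters' notes name fastp, HISAT2, StringTie and GRCm39. How strand, multi-mapping reads and overlapping genes were handled in counting is not given in the sources used here. Timp1, Timp3, Mmp2 and Mmp14 overlap other counted genes (Syn1, Syn3 and 2 lncRNAs), and what this overlap took from or added to their counts was not tested.

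Genes were kept by filterByExpr, normalized by TMM and compared with edgeR 4.0.16 (quasi-likelihood test with robust estimates, R 4.3.3), each comparison in a fit of its own, with Benjamini-Hochberg adjustment over all genes tested and a threshold of 0.05. CPM are TMM-normalized within a table, or over all 16 libraries where members are compared between fresh and cultured cells. Sums of cell type markers and the values of Camp are normalized within each table throughout. Errors beside means are SD and beside log2 fold changes SE. Exon lengths are the union of all annotated exons of a gene in GENCODE vM21 (GRCm38) and served only for levels per kilobase. Neighbours in an order of levels were held apart where mean ± SD did not overlap. Promoters are from RefSeq (GRCm38.p6), with sequences for 5 of the 9 genes. Permutation tests were two-sided and exact. The fits were tested on simulated counts in which 200 genes were changed. For EM-mGC against Con-mGC, 8 of 165 edgeR calls and 33 of 210 DESeq2 calls were false. At a log2 fold change of 1 they found 61 and 78 of 100 changed genes. False calls were 21 of 203 and 16 of 193 for EET against PBS, and 8 of 156 and 36 of 196 for PBS against EM-mGC. The 200 genes were changed evenly in both directions, whereas 69% of all genes passed between PBS and EM-mGC. The simulation therefore does not measure the errors of that comparison. No 2 libraries of a group were as close as sampling noise alone would leave them, so none was counted as a duplicate.

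The members and the lists were chosen with earlier results of these data known. The plasminogen list counts 1 gene whose values are not reported here. Named were all members, some of the list genes with at least 1 CPM in a group, a few ADAMTS proteases, ovulation response genes past the threshold, Plg (below 1 CPM, chosen after its values were seen), and for each member the 3 genes with the highest r over the fresh libraries (prior count 2, mean of at least 1 CPM). Alternatives were DESeq2 1.42.0, RLE and upper-quartile scaling, no filter, at least 10 counts in every library, a fit with the replicate number as block, a restriction to protein-coding genes, TMM over all libraries for levels, leaving out each library, and, added after seeing the data, no robust estimates.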

Additional observations from a re-analysis of the deposited data

Results flagged for a closer look

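In EM-mGC, 2 members had 1 library far from the other 4 by Dixon's criterion. Plau was at 99.1 CPM in EM-mGC-4 and at 68.0 to 76.3 CPM in the other 4, a gap of 0.731 of the whole range. Serpine2 was at 2150 CPM in EM-mGC-2 and at 767 to 1110 CPM in the other 4, a gap of 0.752. The test was made for 18 groups (9 genes in Con-mGC and EM-mGC), and chance marks about 1 in 20 groups. EM-mGC-2 also had the highest sum of granulosa markers and the lowest of stromal markers among the fresh libraries, and EM-mGC-4 the lowest sum of granulosa markers, at 6318 CPM. What these have to do with the 2 values was not tested.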

How the results depend on the processing

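Of the members' log2 fold changes, 3.05 of Timp3, 1.44 of Mmp14, -6.65 of Mmp9 and -1.38 of Plau between PBS and EM-mGC kept their direction and their call under every alternative that gave a value. At least 10 counts in every library left Mmp9 out. The cause of the changes below was not tested.

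Between EM-mGC and Con-mGC the count of called genes, 0 in edgeR, was 113 with DESeq2 (1 each in the lists of the plasminogen system, the metalloproteinases and the ADAMTS proteases), 7 with no filter, and 0 to 46 when a library was left out (46 without Con-mGC-3, with 1 metalloproteinase, and 1 without EM-mGC-1). DESeq2 called Mmp9 (1.87) and Plaur (1.47). With a library left out, log2 fold changes ran from 1.70 to 2.28 for Mmp9, from -0.44 to 0.15 for Plat, from -0.28 to 0.18 for Serpine2 and from -0.28 to 0.05 for Mmp2. The last 3 changed sign, Plat without Con-mGC-1 (0.15) or EM-mGC-1 (0.0020), Serpine2 without EM-mGC-2 (-0.28) and Mmp2 without EM-mGC-2 (0.046). Plaur kept its direction throughout, from 1.09 to 1.72.

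Between EET and PBS the count of 225 was 341 with DESeq2 (2 inhibitors and 3 ADAMTS proteases), 609 with no filter (2 of the plasminogen system, 1 metalloproteinase, 2 inhibitors and 3 ADAMTS proteases), 184 without robust estimates, and 52 to 629 with a library left out, when the lists held 0 to 4, 0 to 1, 0 to 2 and 0 to 3 genes. The single inhibitor call became 0 among protein-coding genes only and without robust estimates. Timp3 passed in 6 of 14 alternatives, among them DESeq2 (-0.29), no filter (-0.28) and each PBS library left out (-0.35 to -0.19 over all left-out libraries). With no filter Plat (-0.31) and Plau (-0.41) passed too. With a library left out the values were -0.38 to -0.22 for Plat, -0.57 to -0.17 for Plau, -0.37 to -0.11 for Serpine2, -0.05 to 0.34 for Plaur and -0.02 to 0.19 for Timp1. Plaur changed sign without PBS-3 (-0.052), and Timp1 without PBS-2 (-0.019) or PBS-3 (-0.0033).

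Between PBS and EM-mGC, Plat passed in 11 of 16 alternatives. It did not with no filter (-1.01), nor without EM-mGC-2 or any 1 PBS library, and ran from -1.23 to -0.79 with a library left out. In the same runs Plaur was at -0.92 to -0.36, Serpine2 at 0.40 to 0.83, Mmp2 at -0.25 to 0.10 and Timp1 at -0.38 to 0.10. Mmp2 turned positive with no filter (0.0090), without EM-mGC-1 (0.04) and without EM-mGC-4 (0.10), and Timp1 without EM-mGC-5 (0.10). At least 10 counts in every library left 5 called genes in each of the metalloproteinase and ovulation response lists.

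Libraries with the same number in PBS and EET deviated from their group means with correlations of 0.0602, 0.0980 and -0.0237, and no source says that the numbers mark the pairs in which the replicates are described, so the main fit has no block. With the replicate block the counts were 2 between EM-mGC and Con-mGC, where Serpine2 was at -0.043, and 435 between EET and PBS, with 2 inhibitors, where Timp3 passed at -0.28. Between PBS and EM-mGC, in replicates 1 to 3 of both groups, the block gave 0.22 for Mmp2 and 0.38 for Timp1.

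With TMM over all 16 libraries instead of within the table, mean levels in culture were higher by more than their SD for Plat (27.7 CPM in PBS and 22.4 in EET), Mmp2 (34.9 and 30.6), Mmp14 (312 and 286) and Timp3 (373 and 305), and in EET for Plau (21.4), Plaur (7.72), Serpine2 (1331) and Timp1 (96.7).

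A p that misses the threshold with 5 against 5 or 3 against 3 libraries does not show that levels were alike. At 5 and 2 reads in culture, no difference of Mmp9 between EET and PBS was detectable. The sources do not say which mice went into which cultured library, and p-values there measure only the spread between these libraries.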
